A study of Mus musculus with 22 samples.

Results

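The genes described here are the nuclear genes for the mitochondrial respiratory chain and ATP synthase, measured in cells sorted from mouse EMT6 mammary tumours. They were chosen by symbol alone: every gene whose symbol starts with Nduf followed by A, B, C, S or V and a number, the Sdh genes A to D, symbols starting with Uqcr, the Cox subunit families from Cox4 to Cox8, and symbols starting with Atp5. A gene was kept in a fraction when at least 2 of its libraries held an FPKM (fragments per kilobase of transcript and of sequencing depth) of at least 1. Of 84 matching symbols among 24353 genes, 78 were kept among 10780 tested genes in the CD45-negative cells and 81 among 10340 in the CD45-positive cells, and the 78 were kept in both. Complex I supplied 35 genes, complex II 4, complex III 8, and complex V, the ATP synthase, 15, with every matching gene kept in both fractions. Complex IV supplied 19, of which 13 were kept in the CD45-negative cells and 16 in the CD45-positive cells. The remaining 3, Atp5s, Atp5sl and Cox7a2l, match the symbols but are not counted as subunits. Ndufa4 and Ndufa4l2 were counted with complex IV, where the Ndufa4 protein is found despite its name.

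The respiratory chain passes electrons from NADH (complex I) and from succinate (complex II) through ubiquinone to complex III and then, by cytochrome c, to complex IV, which reduces oxygen to water. Complexes I, III and IV pump protons across the inner mitochondrial membrane, and complex V lets them flow back to make ATP. Most subunits are encoded in the nucleus, translated in the cytosol and imported, while a small core is encoded in mitochondrial DNA and made on mitochondrial ribosomes. Both sets of transcripts are kept in balance by factors that include NRF1, GABP (an ETS factor also called NRF2), YY1 and ERRα. Tumour cells, activated lymphocytes, resting lymphocytes and the myeloid cells of a tumour differ in how much they rely on this chain and on glycolysis.

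EMT6 is a mammary carcinoma line of BALB/c origin. Per the labels, 200000 wild type EMT6 cells went into the left and right inguinal fat pad of BALB/c mice aged 5 to 6 weeks, and tumours were sorted into cells without and with CD45, the surface protein of leukocytes. Mice received vehicle, JQ1 (an inhibitor of the BET bromodomain proteins that read acetylated chromatin; 50 mg/kg by gavage every day), JQ1 with an antibody to the checkpoint ligand PD-L1 (clone 10F.9G2), JQ1 with the microtubule drug paclitaxel, or all 3 drugs. Antibody and paclitaxel were each given at 10 mg/kg into the abdominal cavity 2 times a week. Every treated group received JQ1, so neither paclitaxel nor the antibody was seen without it. The CD45-negative cells gave 12 libraries (2 vehicle, 2 JQ1, 2 JQ1 with anti-PD-L1, 3 JQ1 with paclitaxel, 3 with all 3 drugs) and the CD45-positive cells 10 (2 in each group). With vehicle, JQ1, and JQ1 plus anti-PD-L1, the 2 tumours of a group carry 1 mouse code, the right and left tumour of what the labels give as 1 animal, so p-values measure the spread between tumours that may come from 1 mouse. The tumour graft is 1 cell line, and a CD45-negative sort keeps stroma as well as carcinoma cells.

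Upstream sequences are given first because the choice by symbol did not use them. Most members hold no match to any 1 of the motifs searched, and the shares below are a description with no test. RefSeq start sites (build GRCm38.p6, not the mm9 build of the deposited values) were found for 64 of the 81 members, giving 69 windows of 300 bases, 250 before and 50 after each start. The NRF1 letters GCGCATGCG were in 11.6% of member windows, against 3.81% of the 10074 windows of all tested genes. The YY1 letters AAGATGGCG were in 10.1% against 3.29%, the ERR letters AAGGTCA in 11.6% against 3.26%, and the ETS letters CCGGAAG in 23.2% against 18.4%. Both strands were searched, and no window had matches of 2 motifs that overlapped. The 250 bases before the start are printed for 1 member of each complex, with any match that lies wholly before the start in capitals: Ndufb7 (chr8:83566508-83566757, plus strand), Sdhb (chr4:140961021-140961270, plus), Uqcr11 (chr10:80406822-80407071, minus), Cox6a1 (chr5:115348959-115349208, minus) and Atp5k (chr5:108434400-108434649, minus).
Ndufb7: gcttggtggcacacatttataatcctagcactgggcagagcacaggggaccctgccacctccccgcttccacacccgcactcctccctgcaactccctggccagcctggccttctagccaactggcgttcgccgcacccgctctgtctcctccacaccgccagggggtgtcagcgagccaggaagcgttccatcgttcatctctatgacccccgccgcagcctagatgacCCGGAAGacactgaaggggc
Sdhb: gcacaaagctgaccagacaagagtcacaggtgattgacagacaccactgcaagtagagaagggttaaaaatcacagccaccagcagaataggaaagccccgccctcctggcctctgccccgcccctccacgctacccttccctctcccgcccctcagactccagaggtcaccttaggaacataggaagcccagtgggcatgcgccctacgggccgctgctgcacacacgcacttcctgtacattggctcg
Uqcr11: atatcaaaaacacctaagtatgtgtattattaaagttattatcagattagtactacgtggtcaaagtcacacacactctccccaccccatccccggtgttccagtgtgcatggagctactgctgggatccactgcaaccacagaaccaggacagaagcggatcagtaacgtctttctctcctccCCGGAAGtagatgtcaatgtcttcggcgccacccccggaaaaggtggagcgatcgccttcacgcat
Cox6a1: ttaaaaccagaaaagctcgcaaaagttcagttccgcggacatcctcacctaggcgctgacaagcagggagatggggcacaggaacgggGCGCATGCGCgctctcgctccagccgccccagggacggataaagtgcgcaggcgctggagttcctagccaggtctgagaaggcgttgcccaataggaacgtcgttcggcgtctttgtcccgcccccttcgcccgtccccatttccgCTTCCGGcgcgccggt
Atp5k: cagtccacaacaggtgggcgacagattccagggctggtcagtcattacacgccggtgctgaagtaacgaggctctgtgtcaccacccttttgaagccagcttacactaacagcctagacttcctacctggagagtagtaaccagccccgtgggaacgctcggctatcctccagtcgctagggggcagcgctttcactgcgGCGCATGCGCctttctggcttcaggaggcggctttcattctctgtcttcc
The ETS letters begin 20 bases before the start in Ndufb7, 66 before it in Uqcr11 and 16 before it in Cox6a1, and the NRF1 letters begin 162 bases before the start in Cox6a1 and 50 before it in Atp5k, on both strands. In Uqcr11 an NRF1 match that begins 5 bases before the start runs across it. Sdhb has no match in the printed stretch and an ETS match 7 bases after the start, and Atp5k has an ETS match 13 and an ERR match 24 bases after it. The printed members were picked by name and are not typical: each has an ETS match in its window, against 16 of 64 members. A match describes these letters only and is not a bound site.

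All values are FPKM as deposited, so levels of different genes can be compared per length of transcript. Relative depth, read from the steps of the low values, ranged from 0.547 to 1.79 of the geometric mean of the libraries in the CD45-negative cells and from 0.629 to 1.71 in the CD45-positive cells, and total read counts were not used here. The 7 leukocyte markers (Ptprc, Cd52, Laptm5, Coro1a, Tyrobp, Fcer1g and Cd53) summed to between 2345 and 3829 FPKM in CD45-positive libraries and between 169 and 560 in CD45-negative ones, and fibroblast markers to between 28.5 and 201 against between 1102 and 2569. The sorts therefore differ as labelled. The leukocyte markers in the CD45-negative cells summed to between 408 and 560 FPKM with JQ1 and anti-PD-L1, between 199 and 243 with vehicle, and up to 511 in the other treated libraries. In bulk samples, fewer cells of a type and less RNA per cell cannot be told apart. The 2 fractions were normalized separately and each was fitted on its own. A gene is called when its adjusted p is under 0.05 in limma (a linear model with a shared estimate of the spread, fitted to log2(FPKM + 1) of all tested genes of a fraction, with Benjamini-Hochberg adjustment).

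In CD45-positive cells, respiratory chain transcripts lay lower in all 8 JQ1-treated libraries than in both vehicle libraries. Over the 81 members the FPKM sum was 10711 and 9587 with vehicle. With JQ1 alone it was 6791 and 7034, with JQ1 and anti-PD-L1 8614 and 8952, with JQ1 and paclitaxel 7520 and 7138, and with all 3 drugs 8009 and 7868. From highest to lowest the groups ran vehicle, JQ1 with anti-PD-L1, all 3 drugs, JQ1 with paclitaxel and JQ1 alone, and the libraries of neighbouring groups did not overlap. As a share of all FPKM in a library, members took 3.15% and 2.82% with vehicle and between 2.13% and 2.46% in the treated libraries. Relative depth was 1.3 and 1.44 in the vehicle libraries, between 0.629 and 0.904 with JQ1 and paclitaxel, and between 0.671 and 1.71 in the other treated libraries. In CD45-negative cells the sum was 11424 and 11363 in the vehicle libraries. The JQ1 library 2 lay above both (11882), and all other treated libraries lay below both, between 8385 and 11211.

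**Figure D1:**
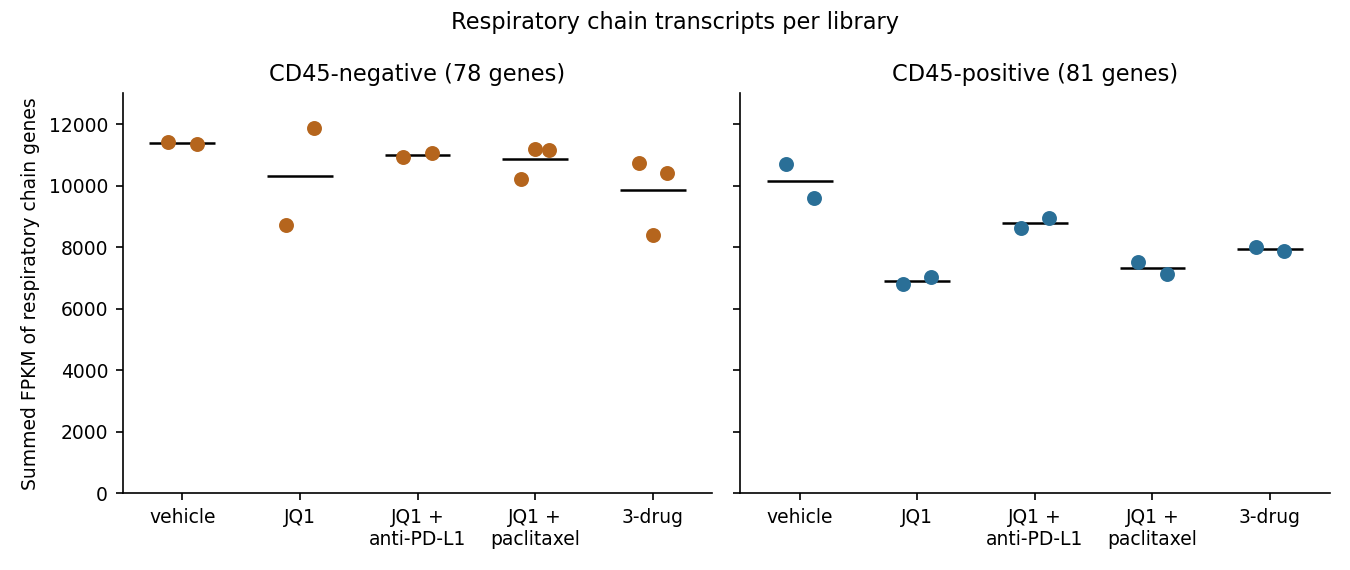
Summed FPKM of the respiratory chain members in each library, by treatment (horizontal axis) and fraction (panels); each point is 1 library and bars are group means. CD45-positive vehicle libraries (10711 and 9587) lie above all 8 treated libraries (6791 to 8952), while 1 CD45-negative treated library (11882, JQ1) lies above the vehicle libraries (11424 and 11363) and the others (8385 to 11211) lie below them.

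The shift reached nearly all members in CD45-positive cells. With JQ1 alone, 78 of 81 members had an estimate below vehicle, with a median log2 difference of -0.52, against 50.3% of all tested genes and a median of -0.00. For 74 members both JQ1 libraries were below both vehicle libraries, a pattern that 26.7% of tested genes showed. At an unadjusted p under 0.05 there were 55 members (19.7% of tested genes), but 1 was called lower and none higher (background 0.435% lower, 1.04% in either direction). The medians of the complexes were alike: -0.59 for complex I (35 of 35 below), -0.65 for complex II (4 of 4), -0.61 for complex III (8 of 8), -0.41 for complex IV (14 of 16) and -0.48 for complex V (15 of 15). The 3 members above vehicle were Atp5sl (0.39), Cox4i2 (0.47) and Ndufa4l2 (0.94), none of them called.

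With JQ1 and paclitaxel, 76 of 81 members were below vehicle (57.7% of tested genes), with a median of -0.48 against -0.09 over all genes. Here 8 members were called lower and 1 higher, against a background of 3.26% lower, 1.58% higher and 4.84% in all. The member called higher, Ndufa4l2, passed the filter only through treated libraries. Both treated libraries were below both vehicle libraries in 71 members (33.5% of tested genes), and 46 had an unadjusted p under 0.05 (21.3%). Complex medians were -0.52, -0.54, -0.53, -0.36 and -0.48 from complex I to V. Most or all of the 9 calls were lost without either vehicle library or either treated library, as were most of the 500 calls over all tested genes. Fewer calls were also made, in members and in all tested genes, without either JQ1 with anti-PD-L1 library. Each of these fits leaves 1 library in a group. With relative depth as a covariate, or with 1 value per mouse code, no member was called. Over all tested genes the count went from 500 to 4 with the covariate and to 0 with 1 value per mouse code.

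With all 3 drugs, 76 of 81 members were below vehicle (49% of tested genes) with a median of -0.37 (0.01 over all genes), and 66 had both libraries below both vehicle libraries (20.5% of tested genes). None was called in limma (background 0.135%), and 28 had an unadjusted p under 0.05 (8.73%). With JQ1 and anti-PD-L1, 72 of 81 were below vehicle (58.3% of tested genes) with the smallest median of the 4, -0.27 (-0.06 over all genes). In that group 53 members had both libraries below both vehicle libraries (27.1% of tested genes), none was called (0.029%) and 15 had an unadjusted p under 0.05 (7.11%). The mean of the 4 treated groups was below vehicle in 77 of 81 members (54.1% of tested genes), with a median of -0.39. All 8 treated libraries were below both vehicle libraries for 45 members, against 7.19% of tested genes, and 1 member, Sdhb, was called lower (0.522% lower, 0.822% in either direction). That call was lost without either vehicle, JQ1 with anti-PD-L1 or JQ1 with paclitaxel library. It was also lost without the JQ1 library 2 or the 3-drug library 2. Each of these fits leaves 1 library in a group, and over all tested genes the calls also rose or fell with the library left out. The 4 comparisons share the same 2 vehicle libraries, so they do not repeat one another independently.

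**Figure D2:**
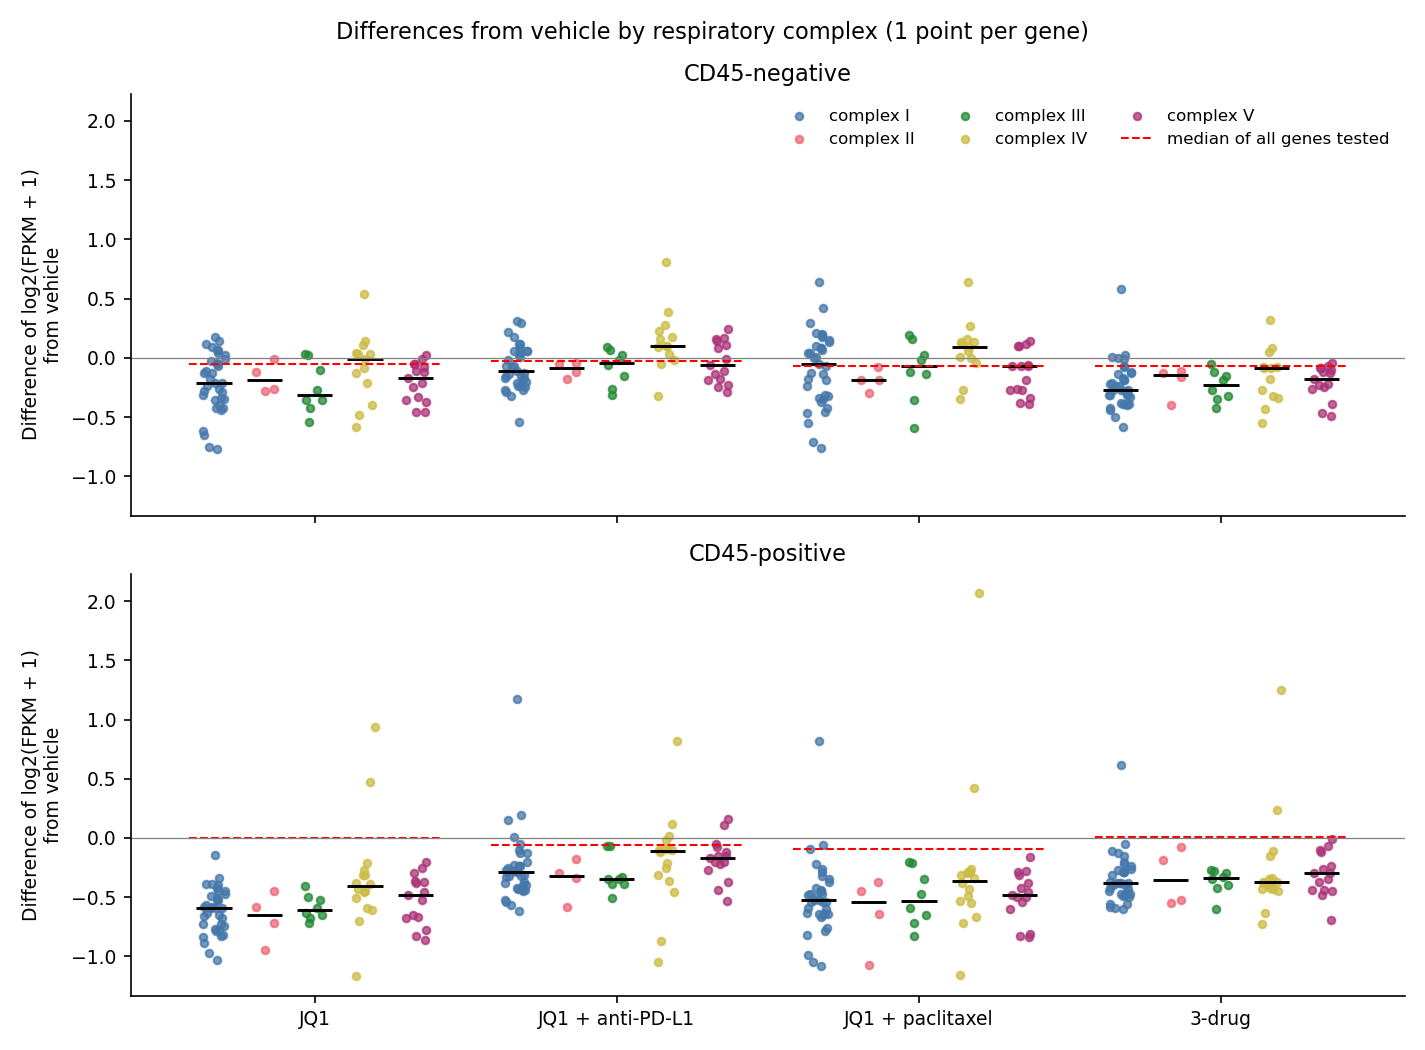
Log2 difference from vehicle of each member (points, coloured by complex) by treatment (horizontal axis) and fraction (panels), on the log2(FPKM + 1) scale. Black bars are the medians of the complexes and dashed lines the median of all tested genes. In CD45-positive cells the medians of all 5 complexes lie below 0 in every comparison with vehicle, from -0.65 (complex II with JQ1) to -0.11 (complex IV with JQ1 and anti-PD-L1).

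Complex I, the NADH dehydrogenase, held the member called with JQ1 alone in CD45-positive cells. Ndufs8, which holds 2 iron-sulphur clusters of the electron path in the matrix arm, measured 104 and 105 FPKM with vehicle. It measured 51.7 and 50.0 with JQ1, 57.5 and 62.6 with JQ1 and paclitaxel, 75.7 and 77.3 with JQ1 and anti-PD-L1, and 78.0 and 60.6 with all 3 drugs. Every treated library lay below both vehicle libraries. Ndufs8 fell by 1.03 on the log2 scale with JQ1 (SE 0.17, limma adjusted p = 0.0341) and by 0.79 with JQ1 and paclitaxel (SE 0.17, adjusted p = 0.0392). The JQ1 call was lost when either vehicle library, either JQ1 library or either JQ1 with anti-PD-L1 library was left out.

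Ndufb7 and Ndufb8, accessory subunits of the membrane arm, fell with JQ1 and paclitaxel. Ndufb7 measured 186 and 160 FPKM with vehicle, 82.6 and 80.0 with JQ1 and paclitaxel, 107 and 87.7 with JQ1, 136 and 96.4 with all 3 drugs, and 152 and 165 with JQ1 and anti-PD-L1. The last group overlapped vehicle and the others did not, and the difference with JQ1 and paclitaxel was -1.08 (SE 0.21, limma adjusted p = 0.0247). Ndufb8 measured 216 and 195 FPKM with vehicle, 112 and 87.1 with JQ1 and paclitaxel, 102 and 106 with JQ1, 145 and 165 with JQ1 and anti-PD-L1, and 155 and 124 with all 3 drugs. Its difference with JQ1 and paclitaxel was -1.05 (SE 0.19, adjusted p = 0.0223), and with JQ1 alone -0.97 (adjusted p = 0.0572, not called). Ndufa9, an accessory subunit of the matrix arm, measured 55.4 and 58.3 FPKM with vehicle and 29.3 and 26.9 with JQ1 and paclitaxel, a fall of 0.99 (SE 0.24, adjusted p = 0.0498) that just passed the threshold.

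The electron entry subunits of complex I were not called. Ndufs1, the large iron-sulphur subunit, measured 19.0 and 23.2 FPKM with vehicle and 11.3 and 10.4 with JQ1, a difference of -0.89 (SE 0.21, limma adjusted p = 0.0797). All 8 treated libraries, up to 18.2, were below vehicle. Ndufv1, which binds NADH and flavin, measured 59.0 and 47.6 with vehicle and 33.4 and 36.7 with JQ1, a difference of -0.59 (SE 0.21, adjusted p = 0.18), with all treated libraries, up to 46.3, again below vehicle. Ndufa1, a small membrane-arm subunit encoded on the X chromosome, was the complex I member nearest to no change with JQ1 among those measured in every library: 92.1 and 90.4 FPKM with vehicle against 85.9 and 79.9 with JQ1 and 86.4 and 88.5 with JQ1 and paclitaxel, differences of -0.14 and -0.06. Ndufs5, a small subunit on the side of the intermembrane space, is listed at about 0 (0.00031 FPKM) in 1 vehicle library and at 0.000488 in 1 JQ1 library beside 16.4 and 8.28 in their partners, so no difference is given for it. The counts and medians of the members and of complex I still include its estimate.

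Complex II, succinate dehydrogenase, links the chain to the tricarboxylic acid cycle. Sdhb, its iron-sulphur subunit, measured 174 and 166 FPKM with vehicle. It measured 98.0 and 77.8 with JQ1, 82.9 and 77.8 with JQ1 and paclitaxel, 112 and 115 with JQ1 and anti-PD-L1, and 128 and 105 with all 3 drugs. All treated libraries were below both vehicle libraries, by 1.07 on the log2 scale with JQ1 and paclitaxel (SE 0.18, limma adjusted p = 0.0168) and by 0.79 over the 4 treated groups (SE 0.14, adjusted p = 0.0477). With JQ1 alone the difference was -0.95 (SE 0.18) and its adjusted p was 0.0502, just outside the threshold. Sdha, the flavoprotein subunit that binds succinate, varied more: 59.7 and 59.2 FPKM with vehicle, 37.3 and 50.0 with JQ1, 56.9 and 36.6 with JQ1 and paclitaxel, and 46.1 and 68.3 with all 3 drugs, where the groups overlapped. Sdhd, which with Sdhc anchors the enzyme in the membrane, measured 105 and 95.9 with vehicle and 61.0 and 59.8 with JQ1 (-0.72, adjusted p = 0.0885).

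Complex III, the cytochrome bc1 complex, had 1 member called. Uqcrc2, a core protein of the matrix side, measured 41.1 and 41.2 FPKM with vehicle and 23.5 and 21.9 with JQ1 and paclitaxel, a fall of 0.83 (SE 0.17, limma adjusted p = 0.0308). It measured 26.8 and 23.8 with JQ1, 29.5 and 27.7 with JQ1 and anti-PD-L1, and 32.2 and 28.9 with all 3 drugs, all below vehicle. Uqcrc1, its core partner, was not called in any comparison: 164 and 162 with vehicle, 109 and 101 with JQ1 (-0.63, adjusted p = 0.0885) and 115 and 100 with JQ1 and paclitaxel (-0.59, adjusted p = 0.0684). Uqcrfs1, the Rieske iron-sulphur protein, measured 55.1 and 56.5 with vehicle and 35 and 32.0 with JQ1 and paclitaxel (-0.72, adjusted p = 0.0601). None of its treated libraries, up to 49.0, reached vehicle.

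Complex IV, cytochrome c oxidase, had no ordinary subunit called in CD45-positive cells. Cox4i1, the abundant form of subunit 4 that assembles early, measured 507 and 457 FPKM with vehicle and 294 and 300 with JQ1 (-0.70, SE 0.16, limma adjusted p = 0.0749). Its other 6 treated libraries lay between 323 and 395. Cox5a measured 226 and 218 with vehicle and 166 and 173 with JQ1 (-0.39, adjusted p = 0.197), while with JQ1 and anti-PD-L1 it measured 216 and 223 and overlapped vehicle. Cox6a1, the broadly expressed form of subunit 6a, measured 510 and 450 with vehicle and 345 and 355 with JQ1 (-0.45, adjusted p = 0.162).

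Complex V, the ATP synthase, had 2 members called lower with JQ1 and paclitaxel. Atp5o, the OSCP protein that joins the catalytic head to the stalk, measured 131 and 132 FPKM with vehicle, 83.0 and 66.4 with JQ1 and paclitaxel, 74.2 and 77.5 with JQ1, 96.3 and 96.0 with JQ1 and anti-PD-L1, and 108 and 98.5 with all 3 drugs. Every treated library was below vehicle, and the fall with JQ1 and paclitaxel was 0.81 (SE 0.17, limma adjusted p = 0.0324). The subunits of the catalytic head were not called. Atp5b, the catalytic beta subunit, measured 402 and 407 with vehicle and 304 and 326 with JQ1 (-0.36, adjusted p = 0.252) and 350 and 302 with JQ1 and paclitaxel (-0.31, adjusted p = 0.296). Atp5a1, the alpha subunit, measured 214 and 200 with vehicle, 151 and 186 with JQ1 (-0.30, adjusted p = 0.479), and 179 and 141 with JQ1 and paclitaxel (-0.38, adjusted p = 0.359). With all 3 drugs Atp5a1 measured 174 and 242, on both sides of vehicle.

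Subunit c, which forms the rotating ring of the ATP synthase, is made from 3 genes that encode the same mature protein. Atp5g1 measured 124 and 107 FPKM with vehicle, 67.9 and 60.7 with JQ1, and 66.1 and 61.9 with JQ1 and paclitaxel. It fell by 0.83 with JQ1 and paclitaxel (SE 0.19, limma adjusted p = 0.0413), and with JQ1 alone the difference was also -0.83 (adjusted p = 0.075, not called). With JQ1 and anti-PD-L1 it measured 92.6 and 113 and overlapped vehicle. Atp5g2 measured 96.3 and 95.2 with vehicle, 93.8 and 73.4 with JQ1, and 71.0 and 67.8 with JQ1 and paclitaxel (-0.46, adjusted p = 0.244). Atp5g3, the gene of the 3 with the highest level, measured 233 and 196 with vehicle, 171 and 188 with JQ1, and 201 and 181 with JQ1 and paclitaxel, with differences of -0.25 and -0.16. The difference between the 3 genes was not tested.

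**Figure D3:**
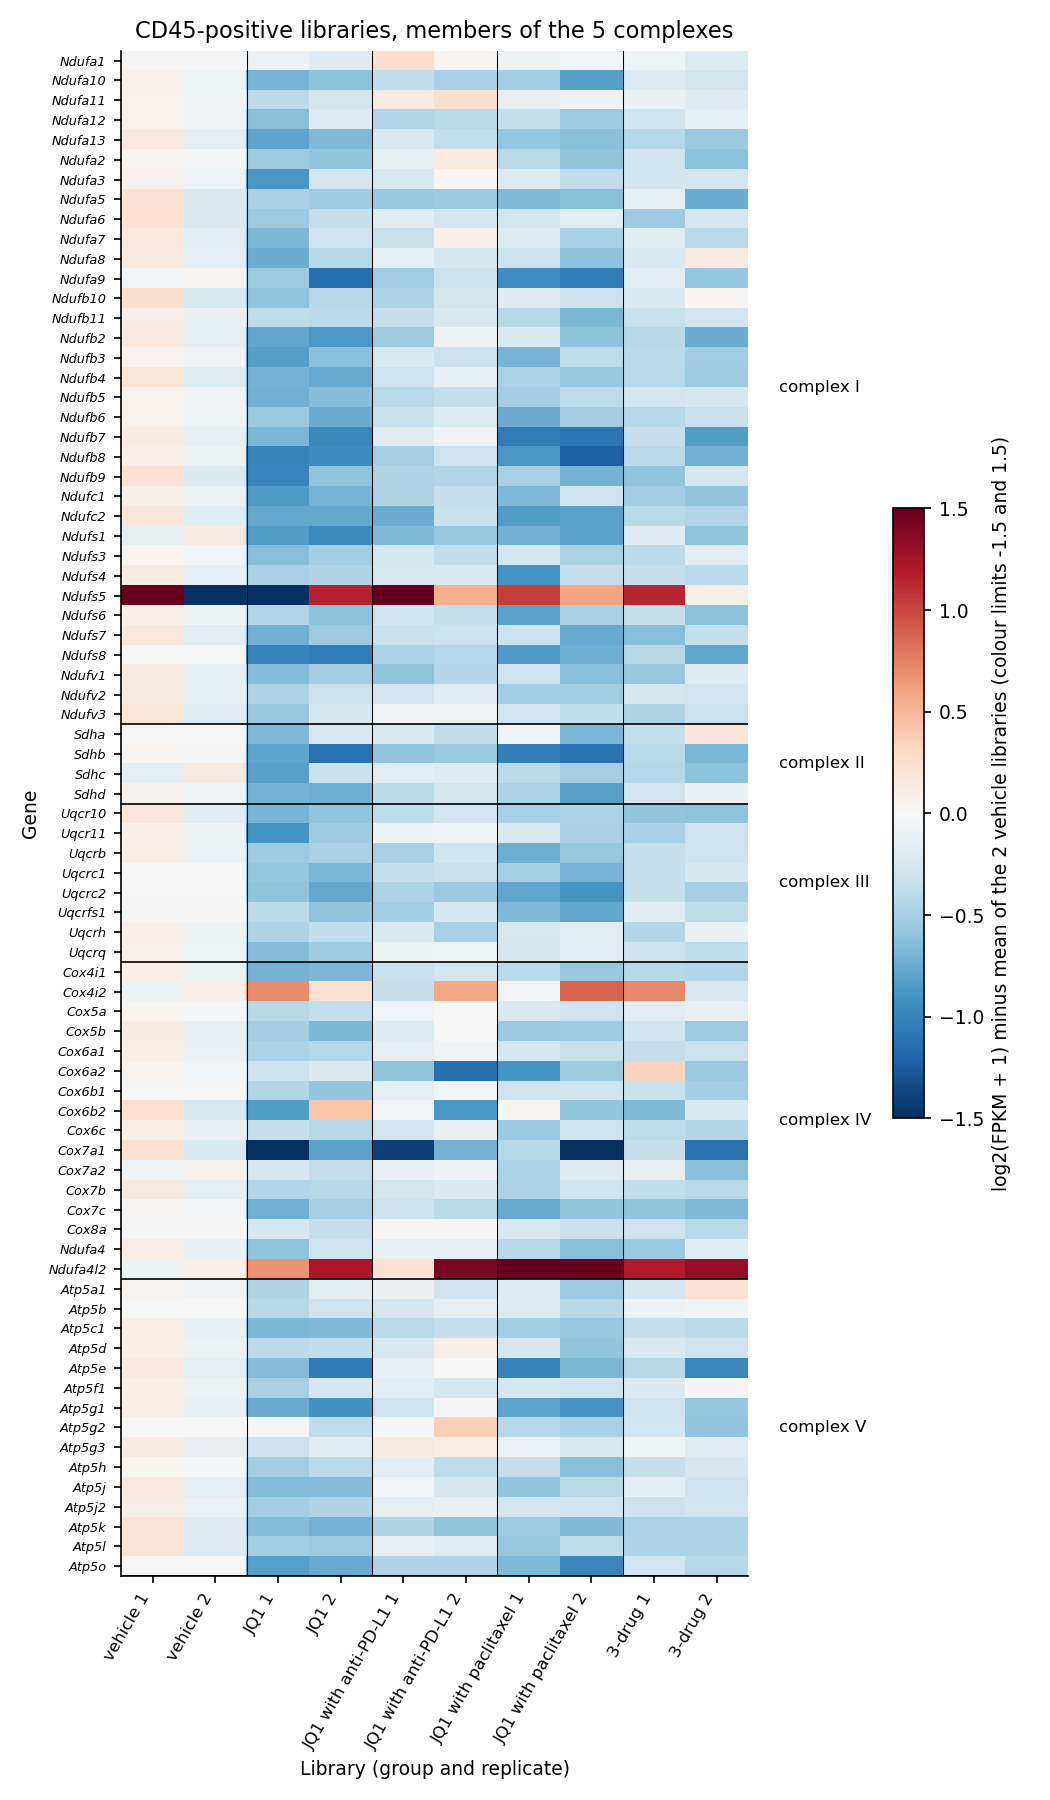
Heat map of members in the 10 CD45-positive libraries, ordered by complex (rows) and treatment (columns); colour is the log2(FPKM + 1) of a library minus the mean of the 2 vehicle libraries, capped at 1.5 in both directions. Atp5s, Atp5sl, Cox7a2l and a member not reported here have no row. Rows of all 5 complexes are mostly below vehicle in the JQ1 columns, and over all 81 members, drawn or not, 78 had an estimate below 0 with JQ1. The Ndufs5 row holds 2 libraries listed at about 0.

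Alternative isoforms gave the call in the other direction. Ndufa4l2, a paralogue of Ndufa4 known as a gene induced by hypoxia through HIF-1 and expressed in pericytes, measured 0.157 and 0.283 FPKM in CD45-positive vehicle cells. It measured 5.02 and 3.36 with JQ1 and paclitaxel, 0.942 and 1.82 with JQ1, 0.411 and 2.26 with JQ1 and anti-PD-L1, and 1.77 and 2.03 with all 3 drugs. Every treated library was above both vehicle libraries, and it rose by 2.07 with JQ1 and paclitaxel (SE 0.38, limma adjusted p = 0.0224), a difference that the added 1 makes smaller at such low levels. Both vehicle values lay under 1 FPKM, so the gene passed the filter in this fraction only through treated libraries, where it is higher. In CD45-negative cells Ndufa4l2 measured 1.93 and 3.43 with vehicle and between 1.72 and 5.78 with treatment, and it was not called in any comparison. Ndufa4 itself measured 196 and 170 with vehicle in CD45-positive cells, against 137 and 117 with JQ1 and paclitaxel (-0.53, adjusted p = 0.164). The 6 pericyte markers (Rgs5, Cspg4, Pdgfrb, Notch3, Kcnj8 and Abcc9) summed to between 22.7 and 27.5 FPKM with JQ1 and paclitaxel and to between 4.94 and 9.17 with vehicle, and 4 of the 5 tested rose. They summed to between 6.19 and 13.7 with JQ1, between 4.07 and 4.44 with JQ1 and anti-PD-L1, and between 5.65 and 7.53 with all 3 drugs, groups in which Ndufa4l2 was also above vehicle. With JQ1 and paclitaxel the 5 endothelial markers (Pecam1, Cdh5, Kdr, Eng and Emcn) summed to between 38.3 and 54.7 against between 3.45 and 6.74 with vehicle, and all 5 rose. The 8 hypoxia reporters summed to between 224 and 319 with JQ1 and paclitaxel and between 229 and 355 with vehicle, which overlap. The part of these cell types in the Ndufa4l2 result was not tested.

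Most other tissue-restricted isoforms were near the limit of measurement. Cox7a1, the heart and muscle form of subunit 7a, measured 8.45 and 5.94 FPKM in CD45-positive vehicle cells and between 1.19 and 5.36 in the treated ones, all below vehicle. The difference was -1.17 with JQ1 (SE 0.51, limma adjusted p = 0.246) and -1.16 with JQ1 and paclitaxel (adjusted p = 0.23). In CD45-negative cells Cox7a1 was at most 2.93 FPKM and listed at 0 in both JQ1 libraries. Cox4i2, a form of subunit 4 tied to low oxygen and lung, ranged from 0.193 to 1.8 FPKM in CD45-positive cells. Both of its JQ1 libraries lay above both vehicle libraries, which was not so in any other treated group, and it was not called. Cox6b2, a testis form of subunit 6b, ranged from 1.16 to 4.3, and Cox6a2, the muscle form of subunit 6a, from 0.0 to 1.79. These 3 passed the filter only in CD45-positive cells. Cox7b2, Cox8b and Cox8c did not pass in either fraction: Cox8c was listed at 0 in all CD45-positive libraries, Cox7b2 in all but 1 of them (0.329) and Cox8b in all but 2 (0.274 and 0.455).

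**Figure D4:**
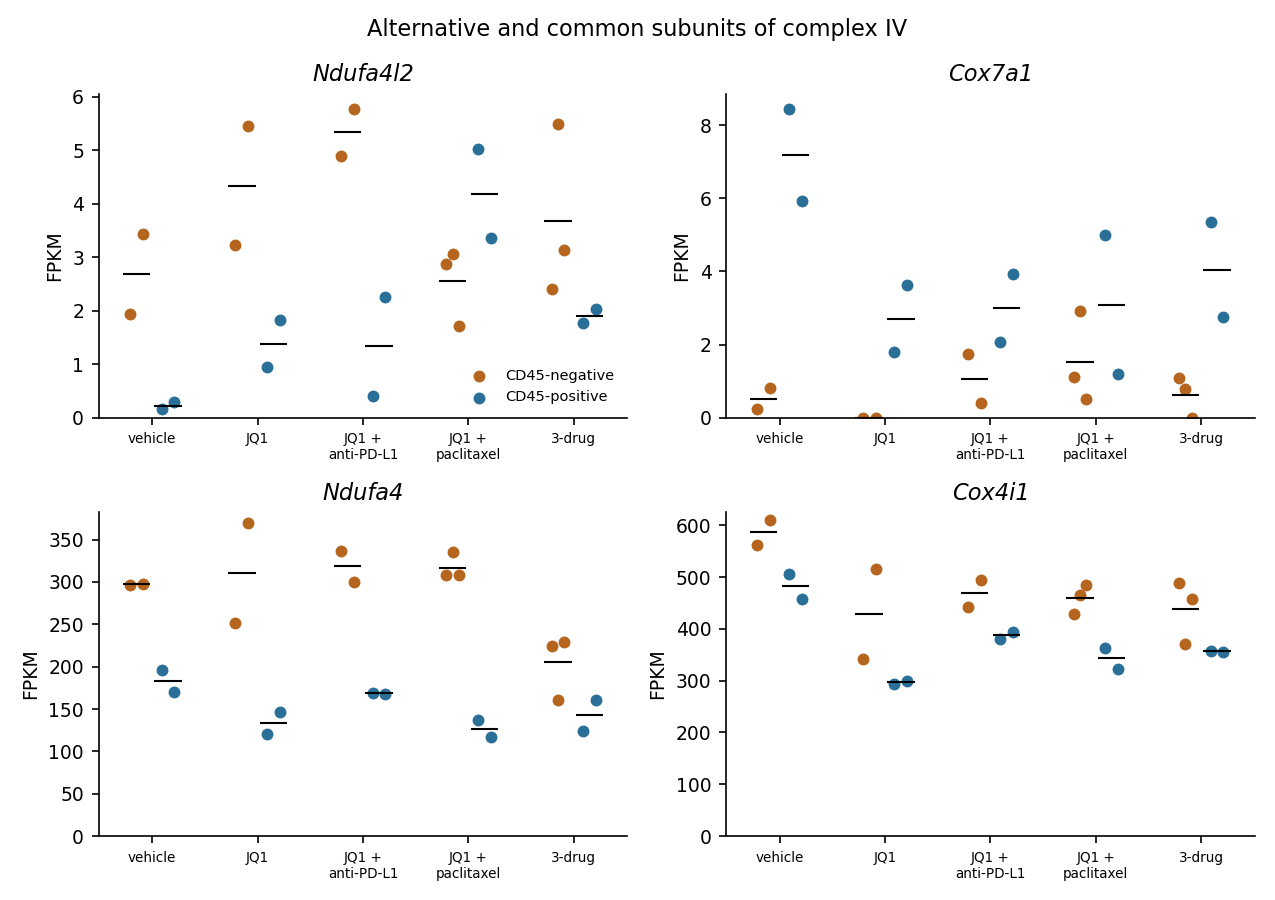
FPKM (vertical axis, linear) of 2 alternative (Ndufa4l2, Cox7a1) and 2 common (Ndufa4, Cox4i1) subunits of complex IV by treatment (horizontal axis); points are libraries, coloured by fraction, and bars are group means. In CD45-positive cells Ndufa4l2 is highest with JQ1 and paclitaxel (5.02 and 3.36 FPKM, against 0.157 and 0.283 with vehicle), and Cox7a1 is highest with vehicle (8.45 and 5.94 FPKM).

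Adding anti-PD-L1 to JQ1-containing treatment was compared within the 4 JQ1 groups. In CD45-positive cells 7 of 81 members were lower with the antibody, against 48.5% of tested genes, and 74 were higher, with a median log2 difference of 0.21 against 0.01 over all genes. The medians were 0.24, 0.32, 0.25, 0.14 and 0.20 from complex I to V. None was called in limma (background 0.832%), 19 had an unadjusted p under 0.05 (18.7% of tested genes), and in 19 all 4 libraries with antibody were above all 4 without (5.64%). The nearest to the threshold was Ndufb7 (0.59, SE 0.15, adjusted p = 0.0931), followed by Atp5g1 (0.53, adjusted p = 0.0963) and Ndufb8 (0.53, adjusted p = 0.104). Adding paclitaxel gave a median of -0.00, with 42 of 81 members lower (52.2% of tested genes), none called (background 0.0387%) and 3 with an unadjusted p under 0.05 (9.45%). The interaction of the 2 additions had a median of -0.18 (0.16 over all genes), no member called (0% of tested genes) and 6 with an unadjusted p under 0.05 (10.3%).

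**Figure D5:**
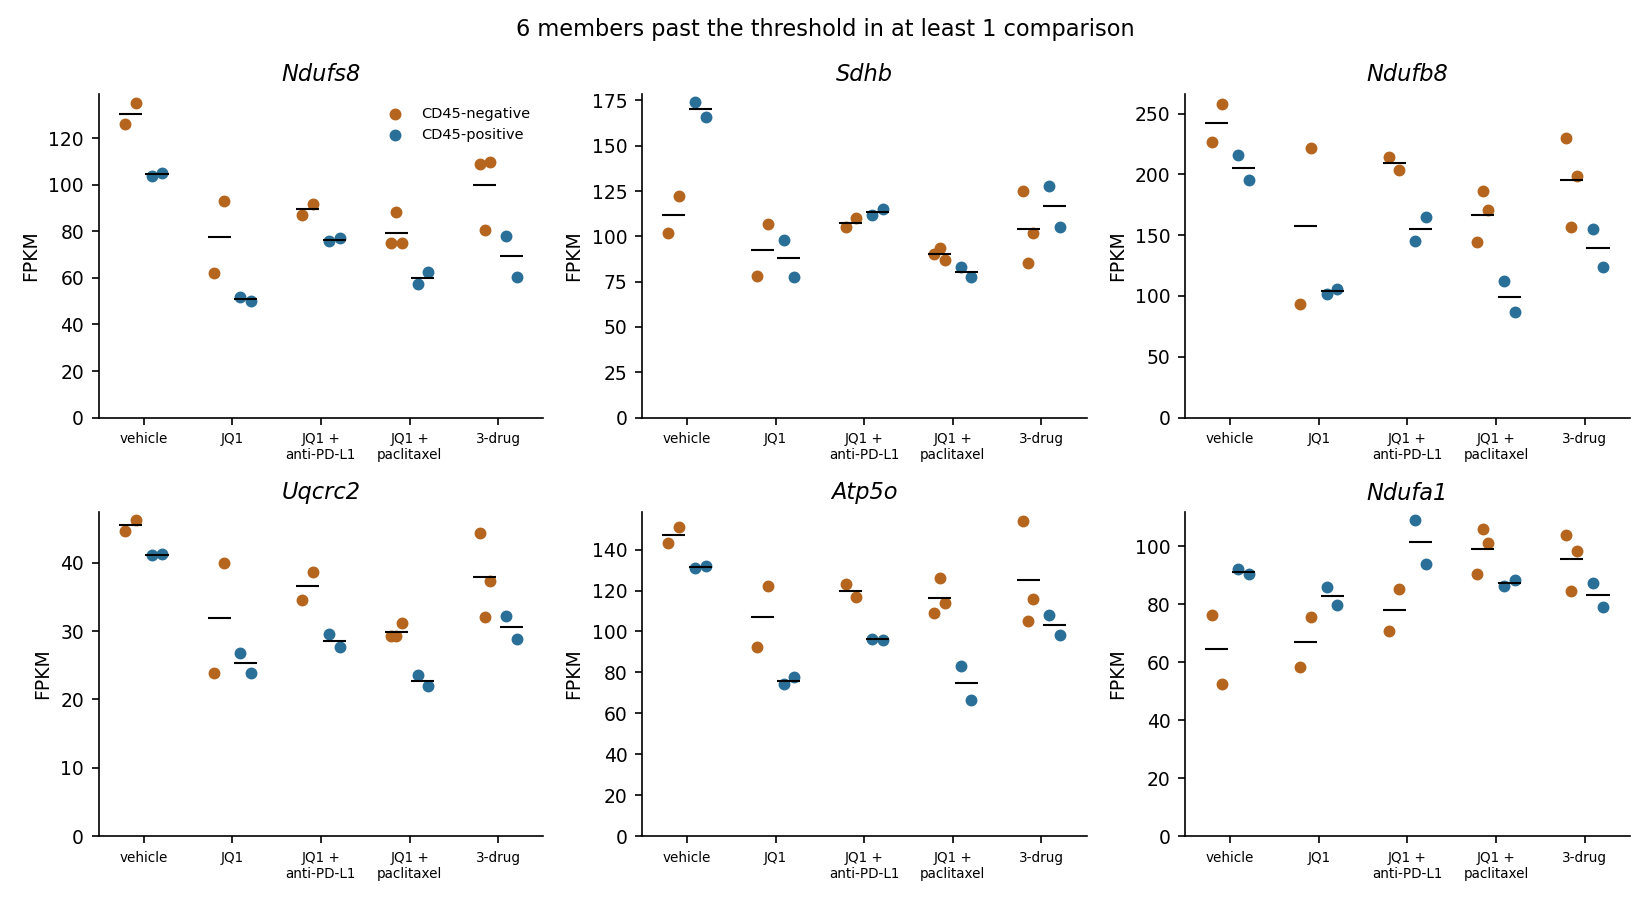
FPKM in each library of 6 members past the threshold in at least 1 comparison, by treatment (horizontal axis); points are libraries, coloured by fraction, and bars are group means. Ndufs8 and Sdhb lie below both vehicle libraries in all 8 treated CD45-positive libraries, while Sdhb overlaps vehicle in CD45-negative cells with JQ1.

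In CD45-negative cells, carcinoma and stroma together, most members lay below vehicle with JQ1 and with all 3 drugs by small medians, and the members called against vehicle were complex I subunits. With JQ1, 60 of 78 members were below vehicle (54.1% of tested genes) with a median of -0.18 (-0.05 over all genes), 2 were called lower (background 9.68% lower, 14.8% in all), and 24 had both libraries below both vehicle libraries, against 33% of tested genes. With JQ1 and paclitaxel 45 of 78 were below (55.4%), with a median of -0.06 (-0.07 over all genes), and 4 were called lower and 1 higher (background 12.3% and 5.29%, 17.6% in all). The count of called members with JQ1 alone changed when single libraries were left out. Without the 3-drug library 3 or any 1 JQ1 with paclitaxel library it was 1. Over all tested genes between 1457 and 1744 were called then, against 1592 in the main fit. The member count rose without the JQ1 library 2 and fell without the JQ1 library 1 or either vehicle or JQ1 with anti-PD-L1 library. Each of the latter fits left 1 library in a group, and calls over all tested genes fell in each. With all 3 drugs 71 of 78 were below (58.7%) with a median of -0.22 (-0.07 over all genes), none was called in limma (1.63%) and 17 had an unadjusted p under 0.05 (19.6%). With JQ1 and anti-PD-L1 46 of 78 were below (54.4%), the median was -0.05, none was called (0.25%) and 3 had an unadjusted p under 0.05 (14.4%). Erythroid markers (Hbb-b1, Hbb-bt, Hba-a1 and Alas2) summed to between 110 and 262 FPKM in the vehicle libraries and to at most 67.4 in the treated ones. Epithelial markers summed to between 296 and 355 with JQ1, 342 and 543 with JQ1 and paclitaxel, and 497 and 876 with vehicle. These markers summed to between 365 and 495 with JQ1 and anti-PD-L1, and to between 527 and 753 with all 3 drugs, within the vehicle range. Proliferation genes summed to between 215 and 227 with vehicle, 150 and 179 with JQ1, and 97.7 and 102 with JQ1 and paclitaxel. With JQ1 and anti-PD-L1 they summed to between 206 and 216, and with all 3 drugs to between 109 and 177. Endothelial markers summed to between 2.48 and 3.17 with vehicle and between 3.4 and 18.6 in the treated libraries. The part of these cell types and of red-cell RNA in these results was not tested.

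Ndufs8 was also lower in CD45-negative cells. It measured 126 and 135 FPKM with vehicle, 62.3 and 93.1 with JQ1, 74.9, 88.4 and 75 with JQ1 and paclitaxel, 87.2 and 91.9 with JQ1 and anti-PD-L1, and 109, 80.8 and 110 with all 3 drugs. All 10 treated libraries were below vehicle. It fell by 0.77 with JQ1 (SE 0.20, limma adjusted p = 0.0262), by 0.71 with JQ1 and paclitaxel (SE 0.19, adjusted p = 0.0211) and by 0.61 over the 4 treated groups (SE 0.16, adjusted p = 0.0375), where it was the one member called (background 5.61% lower, 7.37% in all). That count was 2 without the 3-drug library 1 and 0 without the JQ1 with paclitaxel library 1, where 763 and 689 of all tested genes were called. It rose without the JQ1 library 2 and fell without either vehicle or JQ1 with anti-PD-L1 library. Calls over all tested genes moved the same way in these fits, which leave 1 library in a group. Ndufa9 measured 58.8 and 67.3 with vehicle, 34.3 and 47.9 with JQ1 (-0.62, adjusted p = 0.0484), and 34.0, 36.5 and 39.6 with JQ1 and paclitaxel (-0.76, SE 0.18, adjusted p = 0.0123), with no treated library, up to 58.2, above vehicle. Both were below vehicle in every treated library of both fractions. In CD45-negative cells alone 9 of 78 members showed this pattern, against 898 of 10780 tested genes. How many genes showed it in both fractions was not counted.

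The other calls in CD45-negative cells with JQ1 and paclitaxel were in complex I too. Ndufs7, which holds the last iron-sulphur cluster before ubiquinone, measured 116 and 108 FPKM with vehicle and 76.3, 81.7 and 85.0 with treatment (-0.46, SE 0.15, limma adjusted p = 0.0451), with no overlap. In this comparison 30 of 78 members lay wholly below vehicle, against 3146 of 10780 tested genes, and 13 wholly above it, against 2092. Ndufa1 rose, from 76.4 and 52.5 with vehicle to 90.6, 106 and 101 (0.64, SE 0.18, adjusted p = 0.0322). With all 3 drugs Ndufa1 measured 104, 84.7 and 98.5, also above vehicle (0.58, adjusted p = 0.111, not called). Without any 1 of the 3 treated libraries 2 of the 5 calls with JQ1 and paclitaxel were made, where between 1266 and 1766 of all tested genes were called. Without the 3-drug library 3 there were 3, where 1886 of all tested genes were called. Without either vehicle or JQ1 with anti-PD-L1 library there were also fewer calls, in members and in all tested genes. Those fits leave 1 library in a group.

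No core member of the other complexes was called in CD45-negative cells. Uqcrc2 came nearest: it measured 44.7 and 46.2 FPKM with vehicle, 23.8 and 40.0 with JQ1 (-0.54, limma adjusted p = 0.107), 29.2, 29.2 and 31.2 with JQ1 and paclitaxel (-0.59, SE 0.20, adjusted p = 0.0556), 34.5 and 38.7 with JQ1 and anti-PD-L1, and 44.3, 32.0 and 37.3 with all 3 drugs. Every treated library was below both vehicle libraries, a pattern that 898 of 10780 tested genes showed in this fraction. Sdhb measured 102 and 122 FPKM with vehicle and 78.0 and 107 with JQ1, which overlap. Cox4i1 measured 563 and 610 with vehicle and between 342 and 515 in the 10 treated libraries, all below vehicle, with a difference of -0.48 with JQ1 (SE 0.20, limma adjusted p = 0.13). Cox5a measured 208 and 216 with vehicle and 221, 232 and 246 with JQ1 and paclitaxel, above vehicle by 0.13 (adjusted p = 0.615). Atp5b, the member with the highest vehicle level in this fraction, measured 724 and 868 with vehicle, 661 and 845 with JQ1, and 634, 650 and 689 with JQ1 and paclitaxel (-0.27, adjusted p = 0.314). Atp5a1 measured 221 and 240 with vehicle and between 182 and 240 with treatment. Sdha ranged from 57.1 to 72.2, Ndufs1 from 11.5 to 20.3, Ndufv1 from 50.0 to 69.3 and Uqcrfs1 from 17.7 to 31.0 over the 12 libraries, and Uqcrc1 measured 140 and 178 with vehicle and between 106 and 156 with treatment. Ndufs5 is listed at 0.000568 in the library 1 of the 3-drug group and at between 3.14 and 32.1 elsewhere.

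Adding anti-PD-L1 in CD45-negative cells gave 3 members lower and 1 higher, against a background of 10.9% lower, 14% higher and 25% in all. Every library with the antibody lay below every one without in 4 of 78 members, against 760 of 10780 tested genes. The reverse held for 1 member, against 684 tested genes. Atp5s, a protein named after the coupling factor of the ATP synthase and not a subunit of it, measured 1.42 and 1.69 FPKM with JQ1 and the antibody and 0.964, 2.26 and 1.12 with all 3 drugs. Without the antibody it measured 3.44 and 4.28 with JQ1 and 4.02, 2.78 and 4.66 with JQ1 and paclitaxel, so no library with antibody reached one without, and the fall was 0.96 (SE 0.17, limma adjusted p = 0.00213). Ndufb10, an accessory subunit of the membrane arm, measured 91.8, 84.4, 93.6, 78.5 and 89.2 with the antibody and 99.2, 132, 117, 135 and 135 without, again with no overlap (-0.47, SE 0.11, adjusted p = 0.00888). Ndufa6, an accessory subunit of the matrix arm, measured 103, 106, 97.8, 88.9 and 95.9 against 110, 117, 125, 124 and 123 (-0.26, SE 0.09, adjusted p = 0.0415). Ndufb7 rose by 0.34 (SE 0.11, adjusted p = 0.0476), from 92.8, 110, 83.6, 117 and 102 to 128, 114, 146, 120 and 135, and the groups overlapped. Adding paclitaxel gave a median of -0.04 and no call (background 3.56%), with 4 members at an unadjusted p under 0.05 (20.4%). The interaction had no member called (0.00928%) and 11 at an unadjusted p under 0.05 (7.15%). The 7 leukocyte markers summed to between 261 and 560 FPKM in the 5 libraries with the antibody and to between 169 and 511 in the 5 without, and their part in these differences was not tested. The count of 4 was 7 without the 3-drug library 2, and 2 without the JQ1 with paclitaxel library 1 or the 3-drug library 3. Over all tested genes 2542, 2172 and 2401 were called then, in that order, against 2691 in the main fit. The member count also rose without either JQ1 library and fell without either vehicle or JQ1 with anti-PD-L1 library. These last fits leave 1 library in a group, and calls over all tested genes fell in each.

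The 2 fractions of 1 tumour could be set side by side for 10 tumours, with no test because each fraction was normalized on its own. The FPKM sum of the 78 shared members in CD45-positive cells was 93.7% and 84.3% of that in CD45-negative cells of the same tumour with vehicle. It was 77.8% and 59.1% with JQ1, 78.8% and 81% with JQ1 and anti-PD-L1, 73.7% and 63.9% with JQ1 and paclitaxel, and 74.5% and 93.8% with all 3 drugs. The lowest share was in a JQ1 tumour, and 1 treated tumour, of the 3-drug group, lay above both vehicle tumours. Uqcrfs1 was higher in CD45-positive cells in 10 of 10 tumours (median log2 difference 0.70) and Cox7a1 likewise (1.57). Many members were lower in 10 of 10, with the largest differences in Atp5f1 (-1.20), Ndufa5 (-1.05), Ndufb9 (-1.02), Atp5b (-0.99) and Cox6c (-0.94). The share of all genes with either pattern was not counted. Atp5b, for example, measured 402 and 407 FPKM in CD45-positive vehicle cells and 724 and 868 in CD45-negative ones.

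Other mitochondrial genes were counted from lists chosen beside the members. In CD45-positive cells with JQ1, 75 of 77 mitochondrial ribosomal protein genes were below vehicle (median -0.51), as were 14 of 16 genes of the tricarboxylic acid cycle (-0.54), 24 of 25 import and carrier genes (-0.37), and 10 of 12 complex I (-0.39) and 16 of 21 complex IV (-0.22) assembly factors. Cytosolic ribosomal protein genes, other short and abundant mRNAs, had 28 of 44 below vehicle (-0.04), glycolysis enzymes 9 of 15 (-0.14), and regulators of mitochondrial biogenesis 4 of 12 (0.25). Over all tested genes 50.3% were below vehicle, with a median of -0.00. No gene of these lists was called with JQ1 (background 0.435% lower, 1.04% in either direction). With JQ1 and paclitaxel, where the median over all genes was -0.09 and 3.26% were called lower, the medians were -0.49 for mitochondrial ribosomal proteins, -0.55 for the cycle, -0.33 for import and -0.23 for cytosolic ribosomal proteins. Of the genes called there, only those of largest difference in each list are named, and the share of each list called is not given. Called lower were Mrpl51 (-1.14), Mrps33 (-0.97) and Mrpl23 (-0.85) of the mitochondrial ribosome. So were Ndufaf6 (-1.38, limma adjusted p = 0.0282), an assembly factor of complex I, and Cox20 (-1.07) and Coa6 (-1.04), assembly factors of complex IV.

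In CD45-negative cells the regulators held calls in both directions, where 9.68% of all tested genes were called lower and 5.09% higher with JQ1, and 12.3% lower and 5.29% higher with JQ1 and paclitaxel. Esrra, which encodes ERRα, rose by 0.77 with JQ1 (SE 0.22, limma adjusted p = 0.0363) and by 0.84 with JQ1 and paclitaxel (SE 0.20, adjusted p = 0.0148). Yy1 fell by 0.93 with JQ1 (SE 0.24, adjusted p = 0.0235). Nrf1 and Gabpa were not called (0.49 and -0.25 with JQ1). Ndufaf6 fell here too, by 1.25 with JQ1 and 0.93 with JQ1 and paclitaxel. Of 77 mitochondrial ribosomal protein genes 8 were called lower and 1 higher with JQ1 (median -0.24), and again 8 lower and 1 higher with JQ1 and paclitaxel. Glycolysis held 5 genes lower with JQ1 and paclitaxel, among them Aldoc (-1.57), Pfkp (-0.71) and Tpi1 (-0.66). In CD45-positive cells Esrra (-0.04), Yy1 (-0.12), Nrf1 (0.24) and Gabpa (-0.06) were not called with JQ1.

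Markers of leukocyte types moved with treatment in the CD45-positive cells beside the members. Proliferation genes (Mki67, Top2a, Ccnb1, Ccnb2, Plk1, Cdk1, Birc5 and Ccna2) summed to between 119 and 131 FPKM with vehicle and to between 30.8 and 106 in the treated libraries, with no overlap, and were lowest with JQ1 and paclitaxel (30.8 to 42.6). B cell markers summed to between 155 and 169 with JQ1 against between 9.65 and 11.4 with vehicle, T cell markers to between 51.1 and 205 against between 16.8 and 21.2, and dendritic cell markers to between 70.3 and 160 against between 18.3 and 24.2. Macrophage markers summed to between 3462 and 4303 with JQ1, between 4843 and 5296 with vehicle, between 4194 and 5716 with JQ1 and paclitaxel, between 3704 and 5013 with JQ1 and anti-PD-L1, and between 5220 and 5670 with all 3 drugs. Neutrophil markers summed to between 835 and 1207 with vehicle, between 303 and 1083 with JQ1, between 346 and 374 with JQ1 and paclitaxel, between 375 and 985 with all 3 drugs, and between 1269 and 1685 with JQ1 and anti-PD-L1. The 7 leukocyte markers summed to between 3293 and 3520 with vehicle, between 2786 and 2969 with JQ1, between 2345 and 2463 with JQ1 and paclitaxel, between 3170 and 3390 with all 3 drugs, and between 3784 and 3829 with JQ1 and anti-PD-L1. Fibroblast markers summed to between 112 and 201 with JQ1 and paclitaxel, between 62.3 and 95 with vehicle, and between 28.5 and 88.4 in the other treated libraries. With JQ1 and paclitaxel, B cell markers summed to between 0.579 and 34.8 and T cell markers to between 7.09 and 26.3, which both span vehicle. T cell markers summed to between 14.8 and 15.1 with JQ1 and anti-PD-L1, below vehicle, and to between 19.1 and 56.6 with all 3 drugs, which overlap vehicle. Dendritic cell markers summed to between 22.8 and 25.8 with JQ1 and paclitaxel, 27.2 and 28.1 with JQ1 and anti-PD-L1, and 30 and 63.9 with all 3 drugs. B cell markers summed to between 17.8 and 24.3 and between 32.5 and 53.9 in the last 2 groups. Of the 6 B cell markers 1 was at 0 in each vehicle library and none in the JQ1 libraries, and no proliferation, T cell or dendritic cell marker was at 0 in either group. Erythroid markers summed to between 17.2 and 38.1 with vehicle and to between 0.107 and 10.8 with treatment. The part of these shifts in the level of the respiratory chain genes was not tested.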

How the data were processed

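RNA of sorted CD45-negative (12 libraries) and CD45-positive (10 libraries) EMT6 tumour cells was made into cDNA with the SMARTer v4 low input kit and sequenced on a NextSeq 500, per the labels' protocols. Reads were aligned with STAR 2.5.1b to mm9, per the submitters' processing notes. The authors deposited 1 table per fraction whose values are FPKM, judged from the values because a label calls them counts, and the quantifier is not given in the sources used here. Several short members have near-identical processed pseudogenes, and how such reads were assigned is not given in the sources used here.

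Genes with FPKM of at least 1 in at least 2 columns were fitted on log2(FPKM + 1) with limma 3.58.1 (R 4.3.3, eBayes with a trend), 1 fit per fraction over all 5 groups, two-sided, with Benjamini-Hochberg adjustment over all tested genes and a threshold of 0.05. Residual degrees of freedom were 7 and 5 (12.8 and 8.94 after moderation). The limma script was tested on simulated data. Named genes are the called members except 1 that is not reported here, fixed core subunits of each complex and all alternative isoforms. Members, lists and tests were chosen with earlier results of these data known. Alternatives were a pseudocount of 0.1, no filter, relative depth as a covariate, median-of-ratios scaling, 1 value per mouse code and leaving out each library. The comparison of all 4 treated groups with vehicle and the leukocyte subtype markers were added after the data were seen.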

Additional observations from a re-analysis of the deposited data

Results flagged for a closer look

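The 2 fractions lay on opposite sides of vehicle in 3 cases, with every treated library on 1 side of both vehicle libraries in one fraction and on the other side in the other. How many tested genes did so was not counted, so the 3 cases cannot be called more or fewer than usual. In CD45-positive cells alone, 33.5% of tested genes lay wholly below vehicle with JQ1 and paclitaxel and 20.5% with all 3 drugs. In CD45-negative cells 2092 and 1511 of 10780 tested genes lay wholly above vehicle with these treatments. Ndufa1, the small membrane-arm subunit of complex I, differed from vehicle by 0.64 with JQ1 and paclitaxel in CD45-negative cells, on the log2(FPKM + 1) scale. In CD45-positive cells it differed by -0.06, which is close to no change. With all 3 drugs Ndufa1 differed by 0.58 in CD45-negative cells and by -0.13 in CD45-positive cells. Cox5a, a subunit of cytochrome c oxidase, differed by 0.13 with JQ1 and paclitaxel in CD45-negative cells and by -0.26 in CD45-positive cells. The difference between fractions was not tested, and of these values the first is the one past the threshold in limma.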

How the results depend on the processing

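The direction of the shift in CD45-positive cells held under all 15 alternatives run: the median log2 difference of the members stayed between -0.64 and -0.45 with JQ1, between -0.36 and -0.17 with JQ1 and anti-PD-L1, between -0.59 and -0.36 with JQ1 and paclitaxel, between -0.42 and -0.25 with all 3 drugs, and between 0.17 and 0.24 for the added antibody. In CD45-negative cells, with 17 alternatives, it ranged from -0.35 to 0.01 with JQ1 and from -0.09 to 0.02 with JQ1 and paclitaxel, so its sign was not stable there. Calls were far less stable than directions. With 1 value per mouse code the counts of called members were 0 with JQ1, 0 with JQ1 and paclitaxel, 0 over the 4 treated groups and 1 for the added antibody in CD45-negative cells, and 0 in every comparison of CD45-positive cells, where 2 residual degrees of freedom remained; over all tested genes it made 21, 274, 10 and 738 calls in these 4 comparisons of CD45-negative cells and 0 in CD45-positive cells. With relative depth as a covariate they were 0 with JQ1, 3 with JQ1 and paclitaxel and 0 over the 4 treated groups in CD45-negative cells, and 0 in CD45-positive cells, where over all tested genes it left 2 calls with JQ1 and 4 with JQ1 and paclitaxel. Over all tested genes of the CD45-negative cells the covariate left 311, 1517 and 324 calls, in the order just given. With median-of-ratios scaling the counts of called members were 3 with JQ1 and paclitaxel and 7 for the added antibody in CD45-negative cells. In CD45-positive cells they were 0 with JQ1, 3 with JQ1 and paclitaxel and 0 over the 4 treated groups. Over all tested genes this scaling made 1878 and 2819 calls in CD45-negative cells and 114, 394 and 77 in CD45-positive cells, in the same order. With no filter the counts of called members were 0 with JQ1, 3 with JQ1 and paclitaxel and 0 over the 4 treated groups in CD45-negative cells. Over the 4 treated groups in CD45-positive cells the count was 0. Over all tested genes there were 1204, 1442, 530 and 108 calls in the same order. A pseudocount of 0.1 gave 1 called member with JQ1 in CD45-negative cells and 0 over the 4 treated groups in CD45-positive cells, against 1501 and 79 calls over all tested genes. Leaving out 1 library at a time, the count ranged in CD45-negative cells from 0 to 9 with JQ1, from 0 to 6 with JQ1 and paclitaxel, from 2 to 7 for the added antibody and from 0 to 6 over the 4 treated groups. In CD45-positive cells it ranged from 0 to 1 with JQ1, from 0 to 9 with JQ1 and paclitaxel and from 0 to 2 over the 4 treated groups. Every comparison with no call stayed at 0. Over all tested genes the number of calls also changed with the library left out. The cause was not tested, beyond the smaller number of samples that some alternatives leave. Of the genes called, Atp5s with the added antibody in CD45-negative cells kept its call under every alternative. Over single called genes there were 53 results on the same side of the threshold and 62 weaker under the other alternatives, and 134 and 120 with a library left out, with no reversal. No paired analysis was possible because the groups compared hold different mice and their replicate numbers follow accession order; the 2 fractions of a tumour were normalized separately and set side by side with no test. Depth per library is known only relative to the other libraries, and 2 to 3 tumours a group limit what limma can call.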
